A study of Homo sapiens with 6 samples.

Results

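Transcripts of the MHC class I loading pathway and of its transcriptional activator NLRC5 were described in RL, an established human lymphoma line of B cell origin, under 2 culture forms. The members were 10 genes chosen by name, namely NLRC5, B2M, HLA-E, HLA-F, TAP1, TAP2, TAPBP, TAPBPL, ERAP1 and ERAP2, and all probe sets that the array annotation assigned to exactly 1 of these symbols were taken, 30 of 54675. One group was grown in suspension and harvested in the exponential phase, and the other consisted of multicellular aggregates of lymphoma cells, abbreviated MALC, harvested at 10 days. Both groups carried the t(14,18) translocation of the line and received no treatment, and each had 3 samples, numbered 1 to 3, with 1 Affymetrix U133 Plus 2.0 array per sample. A single cell line stands behind all 6 arrays, the groups also differ in growth phase, and the labels do not say whether the samples were separate cultures; p-values here reflect the spread among these samples alone, possibly a technical one.

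MHC class I molecules display short peptides on the cell surface for inspection by cytotoxic T cells, and a heavy chain is stable there only with the light chain beta-2 microglobulin (B2M) and a bound peptide. Peptides made by the proteasome in the cytosol are pumped into the endoplasmic reticulum by the TAP transporter, a dimer of TAP1 and TAP2, are trimmed by the aminopeptidases ERAP1 and ERAP2, and are loaded with the help of tapasin (TAPBP), which bridges TAP and the heavy chain, and of the tapasin-related editor TAPBPR (TAPBPL). NLRC5 is a member of the NLR family that is recruited to the SXY module of class I promoters through factors bound to DNA, and interferon gamma is a well-known inducer of most of these genes.

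RefSeq promoter windows (GRCh38.p14, 250 bases before to 50 bases after a start) were at hand for 8 of the 10 members, 12 windows in all. NLRC5 and HLA-E had no entry. Both strands were searched for the letters GAAANNGAA, the core of the interferon-stimulated response element bound by IRF factors, and 7 of the 12 windows held them, 1 for each of 7 genes, against 8.11% of 35116 windows. The 7 stretches are shown because genes whose transcripts differed in opposite directions share these letters. The match is in capitals, overlapping matches are merged, and each stretch is written in the direction of its gene.
B2M, chr15:44711366-44711394, plus strand: actctaaGAAAAGGAAACTGAAaacggga
HLA-F, chr6:29723269-29723297, plus strand: tccccagagtTTCTCTTTCtctcccaacc
TAP1, chr6:32853816-32853844, minus strand: ggccgctTTCGATTTCGCTTTCccctaaa
TAP2, chr6:32838779-32838807, minus strand: ctggggaagcGAAAGCGAAagctgcccga
TAPBP, chr6:33314077-33314105, minus strand: tttggagGAAAGTGAAAGTGAAaggagga
ERAP1, chr5:96807924-96807952, minus strand: gggctccactTTCACTTTCggtcctgggg
ERAP2, chr5:96876460-96876488, plus strand: tcttagaacaGAAAGTGAAagcaaaagta
The match began 144 bases before the start in B2M, 155 in HLA-F, 133 in TAP1, 58 in TAP2, 20 in TAPBP and 30 in ERAP2, and just after the start in ERAP1. Both TAPBPL windows lacked these letters, as did the other windows of TAP1, ERAP1 and ERAP2.

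The B2M window also held TGACG, the core of a cyclic AMP response element, found in 24.6% of all windows, and ATTGG, the reverse of the CCAAT box bound by NF-Y, found in 34.6%. Letters of these kinds make up the X2 and Y boxes of an SXY module, and the stretch from 149 to 40 bases before the start is shown for their arrangement, with the 3 kinds of match in capitals.
B2M, chr15:44711368-44711477, plus strand: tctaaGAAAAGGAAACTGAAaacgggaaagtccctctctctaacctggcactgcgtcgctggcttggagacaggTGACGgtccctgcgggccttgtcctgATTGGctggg
TAP2 was the other member with TGACG, and ATTGG was also found on either strand in windows of HLA-F, TAP1 and ERAP1. A match is a description of letters, and binding was not measured.

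Most members were higher in MALC and TAP2 was lower. Of the 30 member probe sets, 25 passed a filter on the mean signal over all 6 arrays, and of these 20 were called higher in MALC and 2 lower, both of the latter for TAP2 (limma, Benjamini-Hochberg adjusted p under 0.05 over all 32768 probe sets tested). One of the 20, a dim ERAP1 probe set, passed the filter through its MALC values alone, and without it 19 of 24 (79.2%) were higher. Among all probe sets tested, 21.2% were called higher and 20.4% lower, against member shares of 80% higher and 8% lower. The members were chosen with earlier results of these data known, so these shares are a description and no test of the set. The median log2 change of the tested member probe sets was 0.52 (0.505 without the dim ERAP1 probe set), against −0.04 for all probe sets. With each gene represented by its brightest probe set, 8 of 10 genes were called higher, TAP2 was called lower and ERAP1 did not pass, where 18.6% and 22.7% of all genes were called higher and lower. The 3 MALC values lay entirely above the suspension values in 21 of the 25 tested member probe sets, against 25.9% of all, and entirely below in 2, against 30.3%. Without the dim ERAP1 probe set, they lay entirely above in 20 of 24. The probe sets of a gene share its RNA and are not independent measurements.

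**Figure D1:**
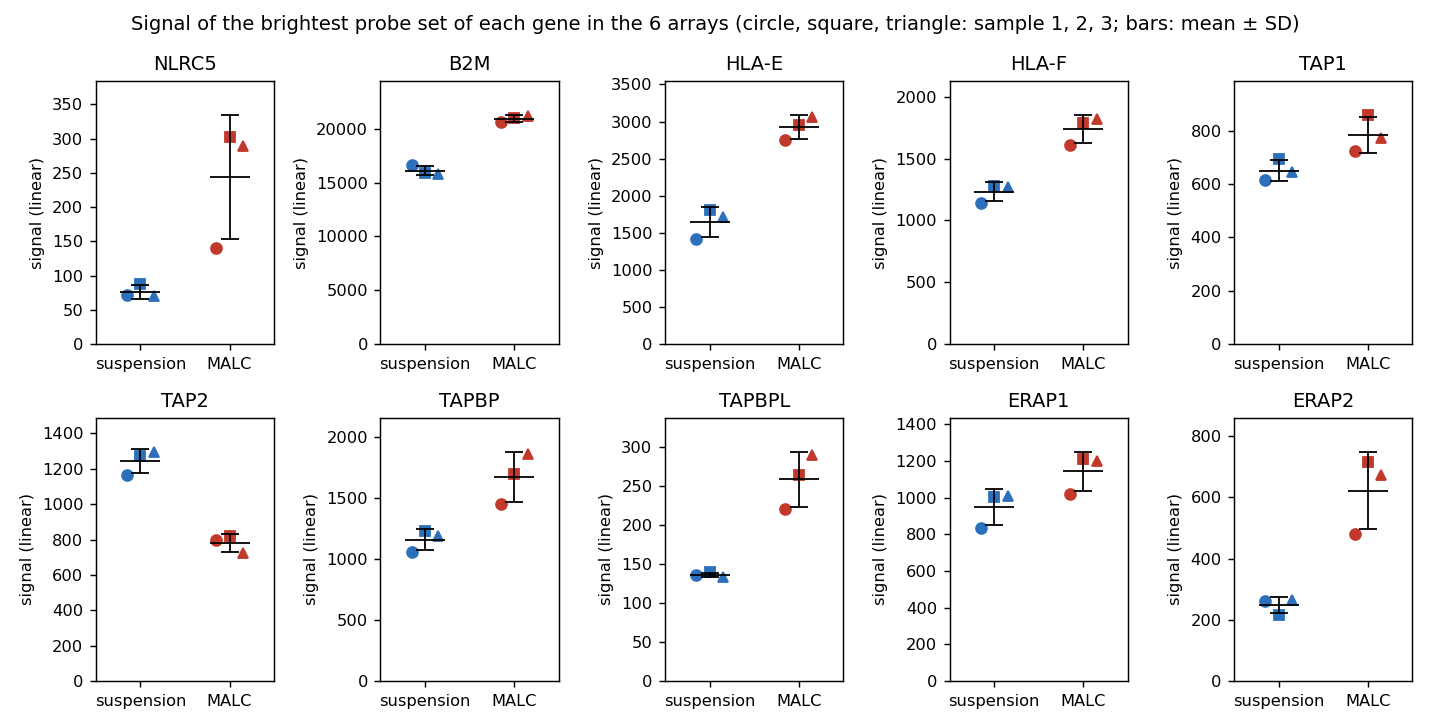
Linear signal (y axis, from 0) of the brightest probe set of each of the 10 genes in suspension and MALC, with 1 point per array and the mean ± SD of 3 arrays as bars. The MALC points lie above all suspension points in every panel except TAP2, where they lie below, and MALC sample 1 is the lowest MALC point in 9 of the 10 panels.

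**Figure D2:**
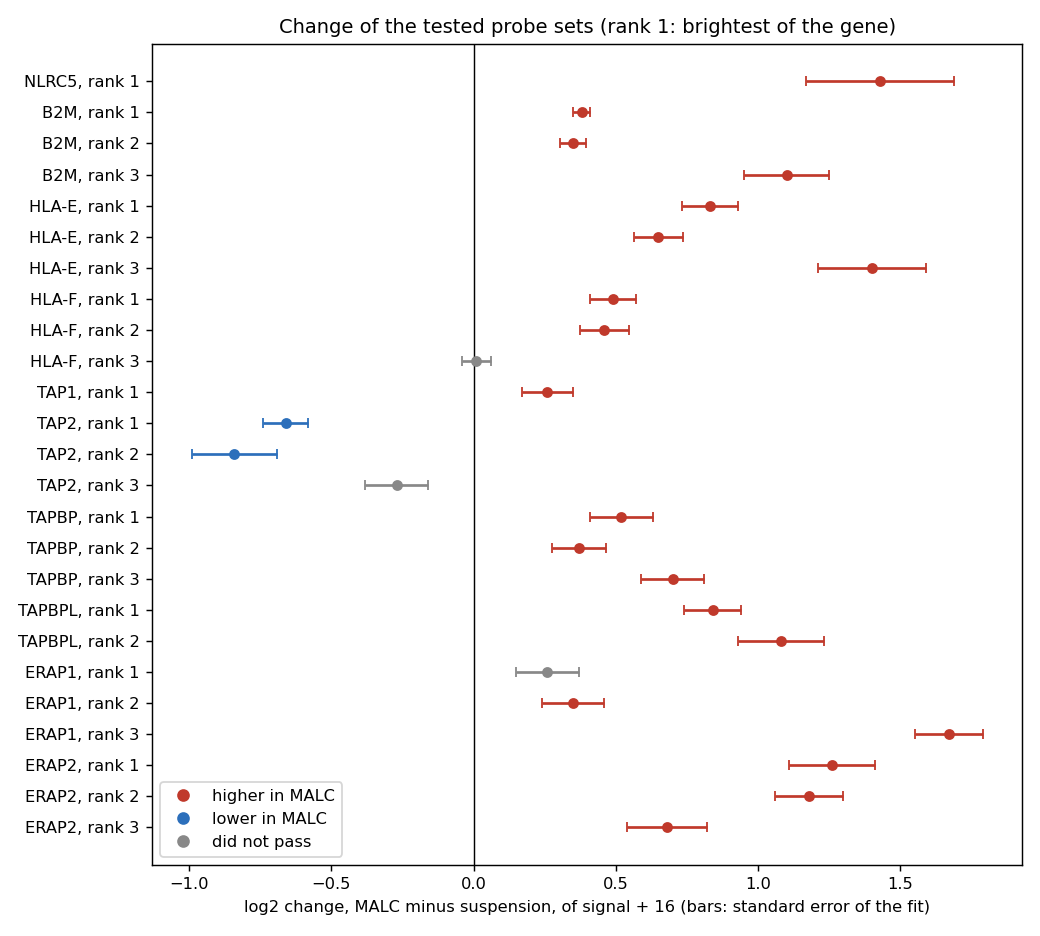
Log2 change of signal + 16, MALC minus suspension (x axis), for the 25 tested member probe sets, ordered by gene and by brightness within the gene; bars are the standard errors of the fit and colours give the call. The ERAP1 probe set of rank 3, which lies farthest to the right, passed the filter through its MALC values alone. The other values run from −0.84 for TAP2 to 1.43 for NLRC5, and the 3 grey points did not pass.

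Array medians lay between 80.7 and 81.7, and the deposited values ran from 7.8 upward with no 0 among them. B cell identity was visible in both groups, since the signals of 6 B cell markers summed to between 28980.5 and 33325.6 on the MALC arrays and to between 28967.3 and 34465.4 on the suspension arrays, and of the 6 only BLK was called (1.28-fold higher in MALC). The T, NK, monocyte, fibroblast and endothelial marker lists summed to between 236.7 and 953.7 on any array. The highest of these sums was that of the fibroblast list on suspension 2, where the collagen gene COL1A2 had 346.6, against 54.1 and 126.9 on suspension 1 and 3 and at most 54.2 in MALC. COL3A1 likewise had 173.8 there, and at most 32.7 on any other array. Of 29 measured markers on these lists and on a dendritic cell list, 9 were under the filter, 2 were called higher in MALC (PRF1 and LAMP3) and 2 lower (CD247 and CD1C). The dendritic cell list summed to between 787.4 and 1132.4 on MALC arrays and to between 760.6 and 1198.2 on suspension arrays. On that list, CD1C had signals of 405.5, 422 and 394.7 in MALC and 539.6, 911.9 and 895.1 in suspension. LAMP3 had 230.6, 537 and 581 in MALC and 58.4, 138.6 and 143.7 in suspension. The plasmacytoid marker CLEC4C stayed between 17.8 and 25.5 on all arrays. For the GAPDH control probe sets, the ratio of 3′ to 5′ signal, a measure of RNA integrity, lay between 1.01 and 1.02 on MALC arrays and between 1.04 and 1.06 on suspension arrays. For ACTB these ranges were 1.22 to 1.33 and 1.31 to 1.54. The part of these markers and ratios in the member results was not tested.

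NLRC5, the class I transactivator, was represented by 1 probe set. Its signals were 140.6, 302.8 and 288.5 in MALC samples 1, 2 and 3, and 71.3, 88.2 and 69.7 in suspension. The groups did not overlap, and MALC sample 1 lay between suspension and the other MALC samples. The change was 2.69-fold (log2 change 1.43 ± 0.26, SE, adjusted p = 0.00375 in limma), with 244 ± 89.8 in MALC against 76.4 ± 10.3 in suspension (SD, n = 3 each), and the scale of log2(signal + 16) understates the ratio of such dim values. The call was kept under all 19 alternatives tried for this probe set, with log2 changes from 1.09 to 1.76 and adjusted p up to 0.0494.

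The light chain and the non-classical heavy chains were higher in MALC. B2M, which pairs with all class I heavy chains, had signals of 20589.5, 20983.7 and 21192.3 in MALC and 16583.9, 15901.9 and 15795.7 in suspension with its brightest probe set. This was a 1.30-fold difference with a narrow spread in both groups (log2 change 0.38 ± 0.031, SE, adjusted p = 0.000245). A second bright B2M probe set gave 1.27-fold and a dim one 2.14-fold, with 461.8, 630.1 and 583.1 in MALC against 293.3, 254.6 and 210.3, so the size differed between probe sets of the gene although the direction did not.

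HLA-E, a heavy chain of low polymorphism that presents leader peptides of other class I chains to NK cell receptors, had 2755.2, 2955.4 and 3066.4 in MALC and 1418.4, 1804.9 and 1708.8 in suspension. The difference was 1.78-fold (log2 change 0.83 ± 0.098, SE, adjusted p = 0.000776), and suspension sample 1 was the lowest of all 6. Its 3 probe sets were all called, at 1.78-, 1.57- and 2.64-fold. The last of these is the one HLA-E probe set without the suffix _x_at, which marks probe sets that can hybridise to other sequences, and it had 591.5, 802.6 and 743.6 in MALC against 191.3, 309.7 and 286.7. HLA-F, a heavy chain found largely inside resting lymphocytes, had 1609.3, 1785.2 and 1816.1 in MALC and 1142.7, 1277.2 and 1273.2 in suspension, a 1.41-fold difference (log2 change 0.49 ± 0.080, SE, adjusted p = 0.00253). Another _x_at probe set of HLA-F gave 1.38-fold. The remaining one, without that suffix, ranged from 52.9 to 56.5 on all arrays, close to the filter threshold of 53.4, with overlapping groups and a log2 change of 0.01 (adjusted p = 0.923). The rise of HLA-F therefore rests on probe sets that may share signal with other class I genes.

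Of 8 other heavy chains and B2M partners listed, 6 were tested, 4 were called higher and none lower in limma, with 0 lower also at an unadjusted p under 0.05 (median log2 change 0.36), where 18.6% of all genes were called higher. CD1D, a lipid-presenting partner of B2M, was under the filter and not tested, at 30.3, 34.6 and 29.6 in MALC against 61.2, 52.8 and 60.6 in suspension. HLA-B rose 1.62-fold, from 5961.7 ± 541 in suspension to 9652.4 ± 833 in MALC, HLA-G 1.52-fold and HLA-C 1.36-fold (adjusted p = 0.000892, 0.00119 and 0.00052), and every one of their 11 probe sets was of the _x_at kind and was called higher.

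The TAP subunits changed in opposite directions. TAP1 had signals of 725.7, 857.5 and 771.9 in MALC and 613.9, 693.7 and 643.9 in suspension. The groups did not overlap, but the highest suspension array and the lowest MALC array were close, and the difference was 1.2-fold (log2 change 0.26 ± 0.089, SE, adjusted p = 0.0461). TAP2, whose product forms the transporter with TAP1, had 797.1, 819.8 and 723.6 in MALC and 1166.8, 1274 and 1294.7 in suspension. It was 1.58-fold lower in MALC (log2 change −0.66 ± 0.080, SE, adjusted p = 0.00085), with a wide gap between the groups.

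The other TAP2 probe sets were lower too or pointed the same way. The second brightest was 1.79-fold lower (294.4, 257.4 and 253.9 against 378.8, 578.9 and 539.8, adjusted p = 0.00425). The third, at 105, 126.9 and 104.2 against 119.2, 159.6 and 138, had overlapping groups and did not pass (log2 change −0.27, adjusted p = 0.0895); with a block for the sample number its adjusted p was 0.0236. The dimmest, under the filter at 26.7 to 27.4 against 30.1 to 34.7, was not tested.

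Taking the log2 ratio of TAP1 to TAP2 within each array, relative to its suspension mean, gave 0.79, 0.98 and 1.01 in MALC and 0.01, 0.06 and −0.07 in suspension. The changes of both genes thus differed by 0.93 on the log2 scale, with groups that did not overlap, and the two-sided exact permutation p was 0.1, the smallest that 3 against 3 arrays allow. This was 1 of 5 gene pairs compared in this way, chosen after their values were seen, and the exact permutation p was 0.1 for each of them, also after Benjamini-Hochberg adjustment. The TAP1 call itself was weak, being lost in limma without any single array other than MALC 1 (adjusted p 0.0642 to 0.166) and without the filter (adjusted p = 0.06).

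On chromosome 6 the RefSeq gene order is TAP2, PSMB8, TAP1, PSMB9, where PSMB8 and PSMB9 encode catalytic subunits of the immunoproteasome, the proteasome form that favours peptides fit for class I. PSMB8 had 2657.3, 3077.2 and 2727.3 in MALC against 2804, 3419.3 and 3356.6 in suspension, and PSMB9 had 1810.4, 2344.1 and 2271.2 against 1635.1, 2142.3 and 2144.9. Both had overlapping groups and did not pass, with log2 changes of −0.18 and 0.12 (adjusted p = 0.173 and 0.513). Between samples of the same number PSMB8 was lower in MALC in 3 of 3 pairs and PSMB9 higher in 3 of 3, and with a block for the number their adjusted p was 0.0596 and 0.118. PSMB8 passed as lower without suspension sample 1 (adjusted p = 0.0322), where the PSMB9 change was −0.01, and with array weights (0.0365). Without both samples numbered 1, PSMB8 passed as lower and PSMB9 as higher (adjusted p = 0.00208 and 0.0483).

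**Figure D3:**
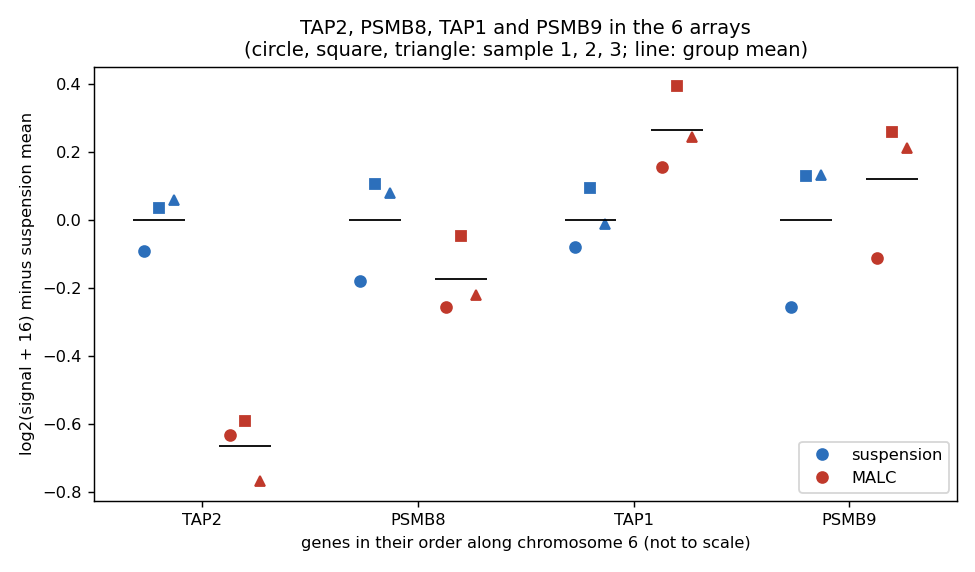
Log2(signal + 16) relative to the suspension mean (y axis) of TAP2, PSMB8, TAP1 and PSMB9, in their order along chromosome 6 (x axis, not to scale), with 1 point per array and a line at each group mean. All MALC points of TAP2 lie below its suspension points and all MALC points of TAP1 lie above, while the groups overlap for PSMB8 and PSMB9, whose samples of the same number (same symbol) differ in 1 direction in 3 of 3 pairs.

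Tapasin and its relative were both higher in MALC. TAPBP had signals of 1455.9, 1700.7 and 1863.8 in MALC and 1060.3, 1233 and 1187.3 in suspension. All MALC arrays exceeded all suspension arrays, and the difference was 1.43-fold (log2 change 0.52 ± 0.11, SE, adjusted p = 0.00659). Its dimmer probe sets gave 1.29- and 1.62-fold, both called. TAPBPL, which edits the peptides of class I molecules outside the loading complex, had 220.2, 264 and 289.5 in MALC and 135.7, 138.9 and 133.4 in suspension, with a spread in suspension that was small beside the gap. It rose 1.79-fold (log2 change 0.84 ± 0.099, SE, adjusted p = 0.000763), and its second probe set 2.11-fold, from 118.7, 108.7 and 111.2 to 191.4, 299.5 and 289.7.

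Chaperones that fold class I chains were mostly lower. Of 6 endoplasmic reticulum folding genes, 5 were called lower in MALC and none higher in limma, with 0 higher also at an unadjusted p under 0.05 and a median log2 change of −0.44, where 22.7% of all genes were called lower. PDIA3, the thiol oxidoreductase ERp57 of the loading complex, was 2.00-fold lower (1933.3 ± 535 against 3803.3 ± 342, adjusted p = 0.00332). HSPA5, the chaperone BiP, was 1.98-fold lower, and CALR, the lectin chaperone calreticulin, was 1.38-fold lower (adjusted p = 0.00378 and 0.000884).

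Of the trimming aminopeptidases, ERAP2 was higher in MALC, while the ERAP1 probe sets gave differing results. ERAP2 had signals of 478.8, 713.9 and 672.9 in MALC and 260.8, 216.5 and 263.1 in suspension, so that each MALC array was well above the suspension range. It rose 2.40-fold (log2 change 1.26 ± 0.15, SE, adjusted p = 0.000887), and its 2 next probe sets 2.27- and 1.61-fold. The dimmest ERAP2 probe sets lay at 11.8 to 40.7 on all arrays and were not tested. ERAP1, next to ERAP2 on chromosome 5, had 1022.9, 1211.9 and 1197.9 in MALC and 836, 1005.2 and 1010.1 in suspension with its brightest probe set. The groups were separated by a narrow gap, and the 1.2-fold difference did not pass (log2 change 0.26 ± 0.11, SE, adjusted p = 0.0785); with a block for the sample number its adjusted p was 0.0148.

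The other ERAP1 probe sets disagreed on size. One with 222.3, 261.5 and 280.1 in MALC against 170.4, 200.7 and 218.7 gave 1.27-fold (adjusted p = 0.0424). This call did not hold when MALC 2, MALC 3, suspension 1 or suspension 2 was left out (adjusted p 0.0869 to 0.136). A dimmer one, with 176.8, 204.9 and 171.5 in MALC against 36.9, 48.6 and 56 in suspension, had a suspension mean of 47.2, under the filter threshold of 53.4. It passed through the MALC group alone, so it had to differ, and its size is not given as a result. The 2 remaining ones, at 41.1 to 46.3 and 12.3 to 14.2, were under the filter. The ERAP1 probe sets may detect different transcripts, which the annotation used here does not tell apart.

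Upstream of trimming, 10 of 12 listed immunoproteasome, PA28 and peptidase genes were tested, and 2 were called higher and 3 lower (median log2 change −0.05), shares near the background. PSME1, the alpha subunit of the proteasome activator PA28, rose 1.34-fold (5671.6 ± 615 against 4209.7 ± 178, adjusted p = 0.00573). The cytosolic peptidases BLMH and THOP1 were 1.96- and 1.5-fold lower (adjusted p = 0.0214 and 0.00589). For BLMH, MALC sample 1 stood at 715.8 and the others at 316.5 and 366, and its call was lost in limma without any 1 of MALC 2, MALC 3, suspension 2 and suspension 3 (adjusted p 0.0622 to 0.0805).

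**Figure D4:**
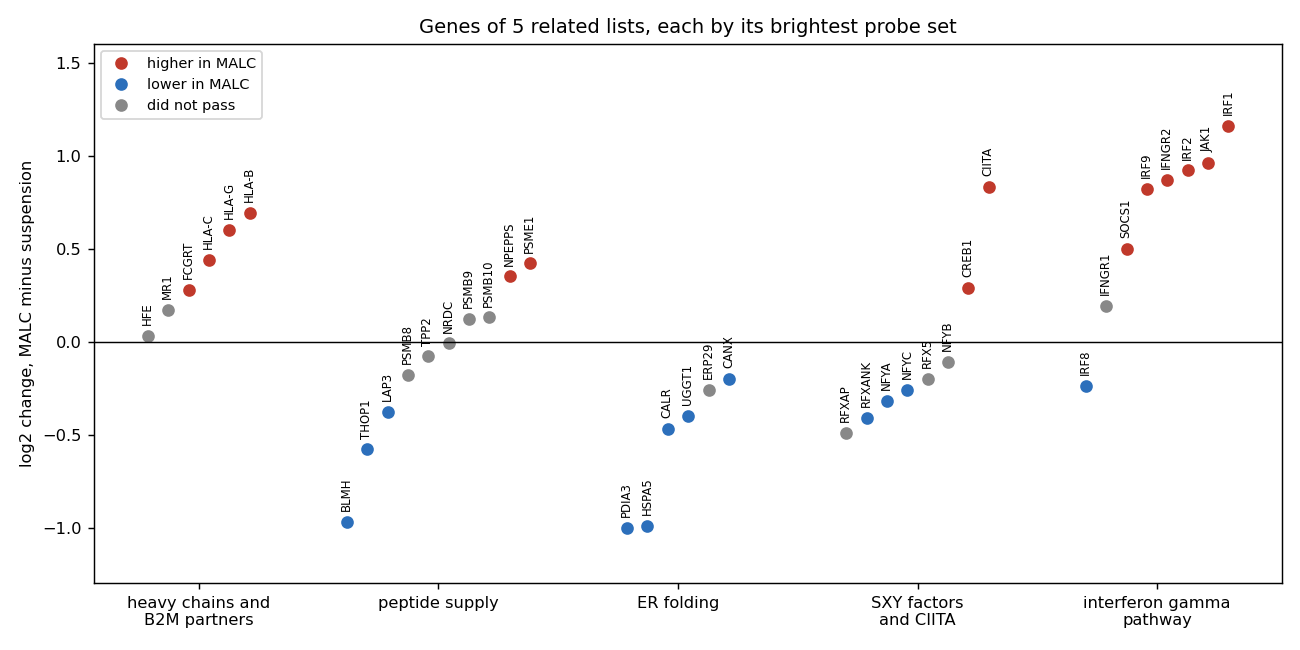
Log2 change, MALC minus suspension (y axis), of the tested genes of 5 lists related to class I presentation (x axis), each by its brightest probe set, coloured by call. The interferon gamma pathway list has a median of 0.85, and the endoplasmic reticulum folding list one of −0.44.

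A list of 9 genes held factors that recruit NLRC5 or its class II counterpart to DNA, and also that counterpart itself, CIITA. Of these 8 were tested, and 2 were called higher, CIITA being 1 of them, and 3 lower (median log2 change −0.23). The called counts were near what the 18.6% and 22.7% of all genes would give. At an unadjusted p under 0.05 in limma, 2 were higher and 5 lower, with no such share over all genes at hand. RFXANK, a subunit of the RFX complex, was 1.33-fold lower and NFYA, a subunit of NF-Y, 1.25-fold lower (adjusted p = 0.00189 and 0.00588). CIITA, the class II transactivator and a relative of NLRC5, rose 1.77-fold, from 134.9, 252.5 and 226 to 296.5, 401.8 and 402.9 (adjusted p = 0.0194), and lost its call without MALC 2 (adjusted p = 0.0728) or MALC 3 (0.0725).

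Of 10 interferon gamma pathway genes 8 were tested, and 6 were called higher and 1 lower (median log2 change 0.85). IRF1, an activator that binds response elements of the kind printed above, had 398, 503.5 and 495.3 in MALC and 179, 209 and 206.6 in suspension, 2.24-fold more (log2 change 1.16 ± 0.11, SE, adjusted p = 0.000375). The kinase gene JAK1 rose 1.94-fold and IRF2 1.89-fold (adjusted p = 0.00192 and 0.000293).

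Over all probe sets, MALC 1 was nearer to the suspension arrays than MALC 2 and 3 were (Pearson r 0.9874 to 0.9888, against 0.9768 to 0.9815). In probe sets called higher, sample 1 tended to be the lowest of its group. Among the 20 member probe sets called higher, MALC 1 was the lowest MALC array in 18 and suspension 1 the lowest suspension array in 12, where the same held for 73.4% and 47.6% of all 6948 probe sets called higher. Samples 2 and 3 of each group were nearly alike over all probe sets (Pearson r across probe sets 0.9984 and 0.9985, against 0.9949 to 0.9955 for sample 1 with either). When these were averaged and counted as 1 sample, 13 member probe sets were called higher and 1 lower, and the calls of TAP1, HLA-F and the brightest TAPBP probe set were lost (adjusted p 0.207, 0.0544 and 0.0752). The brightest probe sets of NLRC5, B2M, HLA-E, ERAP2, TAPBPL and TAP2 kept theirs. Of the 15 called pathway genes named above, 8 lost their calls in this setting, namely PDIA3, HSPA5, RFXANK, NFYA, CIITA, PSME1, THOP1 and BLMH (adjusted p 0.0583 to 0.168), and 7 kept them, namely CALR, HLA-B, HLA-C, HLA-G, IRF1, IRF2 and JAK1. In these bulk samples, a larger share of cells expressing a gene and more RNA of it per cell cannot be told apart.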

How the data were processed

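The deposited values are linear intensities, 1 per probe set and array; per the submitters' processing notes the authors used MAS5, and its role, the background correction and the scaling between arrays are not given in the sources used here. Trizol RNA, 200 ng a sample, was labelled with biotin, per the labels' protocols. Leaving out controls, 41091 of 54613 probe sets named 1 gene, 1801 several and 11721 none here. Of the 41091, 41037 were matched by gene identifier to RefSeq (GRCh38.p14), from which their symbols were taken. No probe set named a member together with another gene. Intensities were taken as log2(signal + 16), and probe sets at or above the 40th percentile of the mean (a signal of 53.4) were fitted with limma 3.58.1 in R 4.3.3 (trend, group only, two-sided), with Benjamini-Hochberg adjustment over all 32768. The deposited values carry no detection calls here, and 3 arrays per group limit the precision. The members and the gene lists were chosen with earlier results of these data known. Named genes were all members, the 3 called genes of largest change per list, the neighbours of the TAP genes and the 3 genes with profiles nearest to NLRC5; marker genes were named after their values were seen. Tried as alternatives were 19 settings, among them normalization, pseudocount, filter, array weights, the sample number as a block and leaving out each array. The fit as reported did not pair the samples, and the block for the number was tried only as an alternative. Deviations from group means correlated between MALC and suspension at 0.245, 0.168 and 0.14 for samples 1, 2 and 3. Samples 2 and 3 were not told apart by this check (0.14 and 0.175 across numbers), so a pairing by number was not established. On simulated arrays, the test on 32768 probe sets was tried with MALC against suspension changes of 0.5, 1 and 2 on the log2 scale. It recovered 56.7%, 88.1% and 98.5% of the 67, 67 and 66 probe sets so changed, with 5 false calls. A far larger share was called on the real arrays, and the adjustment depends on that share, so these rates need not hold there.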

Additional observations from a re-analysis of the deposited data

How the results depend on the processing

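Of 25 tested member probe sets, 14 kept their direction and their call under every alternative run for them, 13 higher and 1 lower in MALC, and they represented 8 of the 10 genes; without the ERAP1 probe set that passed the filter through MALC alone, these were 13 probe sets of 7 genes. With samples 2 and 3 of each group averaged, all probe sets called numbered 3072 higher and 1995 lower (6948 and 6701 in the fit as reported), member probe sets 13 and 1, member genes 5 higher, and genes of the 5 lists 9 higher and 1 lower (14 and 12 as reported); this setting leaves fewer samples. Array weights gave 10306 probe sets lower. With 1 probe set a gene, which tests fewer features, 2611 were higher and 3266 lower, and member probe sets have no separate count. Without _s_at and _x_at probe sets, 4538 were higher and 3835 lower, with 10 and 1 of the members. Leaving out 1 array gave 5022 to 7615 probe sets higher and 4409 to 7450 lower, member probe sets 17 to 21 and 2 to 3, member genes 7 to 9 and 1, and list genes 11 to 14 and 8 to 15. With a replicate block for the sample number, 21 member probe sets were higher and 3 lower, the third TAP2 and the brightest ERAP1 probe sets passing in addition (adjusted p = 0.0236 and 0.0148), and the block changed no other call of a member or of a pathway gene named here; marker genes and the genes nearest to NLRC5 were not compared under it. The HLA-F probe set near the filter had a log2 change of 0.01 that turned to −0.01 without both samples numbered 1, without MALC 1 and without suspension 2, and to 0 with array weights (−0.01 to 0.02 with 1 array left out); that of PSMB9 turned to −0.01 without suspension 1 (up to 0.23 with another left out). Without the filter the dimmest TAP2 probe set passed as lower (log2 change −0.17, adjusted p = 0.0328). Signal above background was not known for any probe set, which limits what dim probe sets show.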

Other observations

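The genes whose 6 values, centred on their own mean on the log2 scale, lay nearest to those of NLRC5 among 13755 other genes were FAM185A, DPY19L3-DT and SH3TC1, at Euclidean distances of 0.243, 0.294 and 0.347. FAM185A had signals of 293.9, 501.8 and 539.1 in MALC and 145.2, 165.8 and 153 in suspension. Like NLRC5, these genes had MALC sample 1 between suspension and the other MALC samples, which follows from how they were chosen. Among the members, ERAP2 was nearest to NLRC5, at 0.613, followed by TAPBPL at 0.938 and HLA-E at 1.04, and TAP2 was farthest, at 2.71. The values were centred but not scaled, so this order largely follows the log2 changes given above and is no separate result.

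Within arrays, other pairs of related members changed unequally when each gene was represented by its brightest probe set. The ERAP2 change exceeded that of ERAP1 by 1.00 on the log2 scale, that of HLA-E exceeded B2M by 0.45, and that of TAPBPL exceeded TAPBP by 0.32, each with groups that did not overlap and an exact two-sided permutation p of 0.1, the smallest possible with 3 against 3. The second ERAP1 probe set had a log2 change of 0.35, and the dimmer tested ERAP2 probe sets had 1.18 and 0.68. The ERAP1 probe set that passed the filter through its MALC values alone had to differ and cannot decide the order. For HLA-E and B2M the order depended on the probe sets compared. A dim B2M probe set had 1.10 and the bright ones 0.38 and 0.35, against 0.83, 0.65 and 1.40 for those of HLA-E, from brightest to dimmest.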
